A study of Homo sapiens with 5 samples.

Results

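The replication-dependent histone genes are the 68 protein-coding genes of the GENCODE release 44 annotation on chromosomes 1 and 6 whose symbols begin with H1-, H2AC, H2BC, H3C or H4C, out of 20033 protein-coding genes in all. They were examined in CUT&RUN libraries of OVCAR8, an established cell line of high-grade serous ovarian carcinoma, grown without any treatment. CUT&RUN places a protein on DNA by tethering a nuclease to it through an antibody and sequencing the fragments that are cut free. Each reaction held 500000 proliferating cells fixed on the plate with 1% formaldehyde for 1 minute, and the series has 2 HSF1, 2 MYC and 1 IgG library. All libraries came from this single line, and no label states that the replicates were separate cultures, so the spread between them may be technical. Depth was similar throughout, at 8265647 to 10084407 filtered fragments with an antibody and 9306942 with IgG.

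Replication-dependent histone genes make the bulk of the histones that package newly copied DNA, and they are transcribed mainly in S phase. They lie in clusters, carry no introns as a rule, and give mRNAs that end in a stem-loop in place of a poly(A) tail. H2A, H2B, H3 and H4 form the nucleosome core, and H1 binds the linker DNA between nucleosomes. MYC is a growth-promoting transcription factor that binds E-boxes with its partner MAX, and HSF1 is the main activator of the heat shock response, which binds arrays of short inverted repeats called heat shock elements.

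By family, the members comprised 6 H1, 17 H2A, 18 H2B, 13 H3 and 14 H4 genes. Their starts, taken from the Ensembl canonical transcript, fell into 5 clusters with no gap over 300000 bp inside a cluster. The 34-gene cluster ran from chr6:25726562-26285534, the 5-gene cluster from chr6:27132795-27147106 and the 16-gene cluster from chr6:27807929-27893425. The 11-gene cluster lay at chr1:149812370-149887965, and the H2AC25 and H2BC26 pair lay apart at chr1:228457873-228458103. All coordinates are on GRCh38. The canonical transcripts were short, with a median of 488 bp, and 61 of 68 were under 600 bp.

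A member was counted as having a peak when a peak interval came within 1000 bp of any of its annotated starts. The peaks were called by the authors with MACS2, separately in each library and against the same IgG library, at a p-value threshold of 1e-10 for MYC and the looser 1e-04 for HSF1. The fold enrichment given for a gene is that of its highest peak and compares the pileup, the number of fragments stacked at the summit, with the local IgG background. A gene without a peak was not called at this depth and threshold, which does not show that the factor was absent.

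The sequences in front of these genes are shown first, because the families differ in them. Of the MYC peaks at members, 15 of 35 in replicate 1 and 6 of 20 in replicate 2 had their summit upstream of the nearest canonical start. H4C13, an H4 gene in the 16-gene cluster, was the only member with an HSF1 peak in both HSF1 libraries, and the 250 bases before its start (GRCh38.p14, minus strand, chr6:27873535-27873784) are given with a heat shock element of 2 units (TTCNNGAA) and the H4 element (GGTCCG) in capitals. H4C8, in the 34-gene cluster, had MYC peaks over its upstream region in both MYC libraries, and its 250 bases (minus strand, chr6:26285535-26285784) are given with the H4 element in capitals.
H4C13: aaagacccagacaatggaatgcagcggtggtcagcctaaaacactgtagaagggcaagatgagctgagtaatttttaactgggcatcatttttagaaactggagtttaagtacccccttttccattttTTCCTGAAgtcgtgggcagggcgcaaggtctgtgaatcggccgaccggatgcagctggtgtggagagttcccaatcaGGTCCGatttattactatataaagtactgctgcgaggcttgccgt
H4C8: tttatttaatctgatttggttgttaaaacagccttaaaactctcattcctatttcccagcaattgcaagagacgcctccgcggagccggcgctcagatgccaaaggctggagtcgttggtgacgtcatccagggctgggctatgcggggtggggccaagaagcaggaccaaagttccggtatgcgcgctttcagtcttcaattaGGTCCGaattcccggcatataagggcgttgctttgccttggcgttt
Another 3 H4 genes are shown over the 70 bases before the start, again with GGTCCG in capitals. H4C2 (minus strand, chr6:26027284-26027353) had a MYC peak in replicate 1 only, H4C9 (plus strand, chr6:27139212-27139281) had no peak in any list, and H4C16 (minus strand, chr12:14771132-14771201), which lies outside the clusters and is no member, had a MYC peak in both replicates.
H4C2: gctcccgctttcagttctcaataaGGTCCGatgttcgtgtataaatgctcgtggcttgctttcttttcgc
H4C9: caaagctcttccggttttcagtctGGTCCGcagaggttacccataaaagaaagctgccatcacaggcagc
H4C16: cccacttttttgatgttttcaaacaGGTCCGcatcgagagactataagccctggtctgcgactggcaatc
The element was present whether or not a peak was called at the gene. The peak of H4C2 (chr6:26026911-26027191) lay inside the gene and did not reach the bases shown. Neither did the peaks of H4C16 (chr12:14769819-14770576 and chr12:14770078-14770285), whose summits lay 883 and 930 bp downstream of the canonical start.

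The divergent H2A and H2B genes share a stretch of DNA between their starts, and 3 such stretches are given on the plus strand with CCAAT boxes (CCAAT, or ATTGG on the other strand) and the octamer (ATTTGCAT on either strand) in capitals. In MYC replicate 1 a peak covered the whole stretch of H2AC25/H2BC26 (chr1:228457874-228458102) and of H2BC13/H2AC13 (chr6:27807930-27808172), whereas H2AC7/H2BC7 (chr6:26199294-26199515) had no peak in any list. In MYC replicate 2 the peak of H2BC13/H2AC13 did not reach the stretch, and the highest peak of H2AC25/H2BC26 reached only its first bases.
H2AC25/H2BC26: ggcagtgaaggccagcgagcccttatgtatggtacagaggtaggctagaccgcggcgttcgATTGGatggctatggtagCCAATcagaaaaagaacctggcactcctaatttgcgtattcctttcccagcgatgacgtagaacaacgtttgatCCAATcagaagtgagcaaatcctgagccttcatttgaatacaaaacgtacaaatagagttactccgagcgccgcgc
H2BC13/H2AC13: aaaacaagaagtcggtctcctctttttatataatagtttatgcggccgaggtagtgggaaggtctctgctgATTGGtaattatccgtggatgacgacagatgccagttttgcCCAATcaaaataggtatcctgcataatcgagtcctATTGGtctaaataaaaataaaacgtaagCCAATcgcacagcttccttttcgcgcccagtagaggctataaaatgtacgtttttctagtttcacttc
H2AC7/H2BC7: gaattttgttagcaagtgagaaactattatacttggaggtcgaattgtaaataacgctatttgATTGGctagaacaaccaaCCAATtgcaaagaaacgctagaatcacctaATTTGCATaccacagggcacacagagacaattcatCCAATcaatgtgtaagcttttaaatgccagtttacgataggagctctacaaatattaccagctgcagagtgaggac
H3C14, which had the highest mean MYC fold enrichment in the 11-gene cluster, though not in replicate 1 alone, is shown over 250 bases (minus strand, chr1:149841209-149841458) with CCAAT and TATA boxes (TATAAA) in capitals.
H3C14: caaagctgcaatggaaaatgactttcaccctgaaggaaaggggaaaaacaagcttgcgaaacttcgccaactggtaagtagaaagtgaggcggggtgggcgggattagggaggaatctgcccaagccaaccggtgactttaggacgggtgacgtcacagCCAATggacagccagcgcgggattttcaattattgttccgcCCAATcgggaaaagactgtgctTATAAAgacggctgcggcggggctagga
The H1 genes carry the H1 box (AAACACA). It is shown in capitals with 12 bases on each side for the 5 genes with a match on the coding strand before the start. H1-1 matched only elsewhere in its 300 bp window, on the other strand or after the start. The box began 117 to 119 bases before the start in H1-2, H1-3, H1-4 and H1-5, and 105 bases before it in H1-6.
H1-2 (minus strand, chr6:26056571-26056601): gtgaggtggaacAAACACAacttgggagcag
H1-3 (minus strand, chr6:26235088-26235118): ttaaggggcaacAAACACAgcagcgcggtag
H1-4 (plus strand, chr6:26156200-26156230): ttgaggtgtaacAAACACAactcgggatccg
H1-5 (minus strand, chr6:27867687-27867717): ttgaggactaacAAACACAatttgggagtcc
H1-6 (minus strand, chr6:26108222-26108252): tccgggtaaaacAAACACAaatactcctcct
The upstream windows come from RefSeq (GRCh38.p14), and the stretches between divergent starts from the hg38 genome.

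RefSeq windows of 300 bp, from 250 bases before to 50 bases after the start, were at hand for 63 of the 68 members. H2AC12, H3C11, H3C12, H4C1 and H4C3 had none. Motifs were searched on both strands, and the shares are set beside the 21613 windows of all protein-coding genes. The canonical E-box (CACGTG) was in none of the 63 members and in 8.35% of all windows. The CCAAT box was in all 6 H1, all 16 H2A, all 18 H2B and all 11 H3 genes with a window but in only 3 of 12 H4 genes, against 34.9% of all windows. The octamer was in 14 of 18 H2B and 11 of 16 H2A genes, against 1.66%. The H1 box was in all 6 H1 genes and in 4.41% of all windows, and the H4 element was in 11 of 12 H4 genes and in 14.1%. The TATA box was in 42 of 63 members, against 9.45%. A heat shock element of 3 alternating units was in no member and in 0.403% of all windows, while the 2-unit form was in 5 members (H1-5, H2AC16, H3C2, H3C6 and H4C13) and in 6.70%. These matches describe the letters of the windows.

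MYC peaks were found at many of the members and HSF1 peaks at few. In MYC replicate 1, 42 of 68 members (61.8%) had a peak, against 55.3% of all protein-coding genes. In MYC replicate 2 it was 23 members (33.8%), against 41.2%. Relative to all genes the members were thus above the background share in the first list and below it in the second. The replicate 1 share differed with repeated sequence around the start, which is taken up further on. It was 29 of 52 members where under 10% recurred, and 6 of 8 and 7 of 8 in the 2 classes above that. All 23 members of the replicate 2 list were also in the replicate 1 list, so 33.8% of members had a MYC peak in both, against 40.1% of all genes. The remaining 19 members (27.9%) had a MYC peak in replicate 1 only, while 16.4% of all genes were called in a single MYC list. HSF1 replicate 1 had a peak at 1 member (1.47%), against 8.58% of all genes, and HSF1 replicate 2 at 3 members (4.41%), against 6.85%. H4C13 was the 1 member (1.47%) in both HSF1 lists, against 3.49% of all genes. No member had peaks of both factors in both replicates, against 3.05% of all genes.

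The MYC libraries had a peak at 32.5 ± 13.4 members (SD, n = 2) and the HSF1 libraries at 2 ± 1.41 (SD, n = 2), a difference of 30.5 members. The libraries of the factors did not overlap in this count, and they did not overlap over all protein-coding genes either. There the shares were 55.3% and 41.2% in the MYC lists and 8.58% and 6.85% in the HSF1 lists. For the members an exact permutation test over 4 libraries, two-sided, gave p = 0.333, which is the smallest value this design allows. The thresholds of the lists differ, and at 1e-10 in all 4 lists the HSF1 counts were 1 member (1.47%) in replicate 1, against 2.57% of all genes, and 2 members (2.94%) in replicate 2, against 2.25%. The plot of shares by library sets the members beside the related genes described further on.

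**Figure D1:**
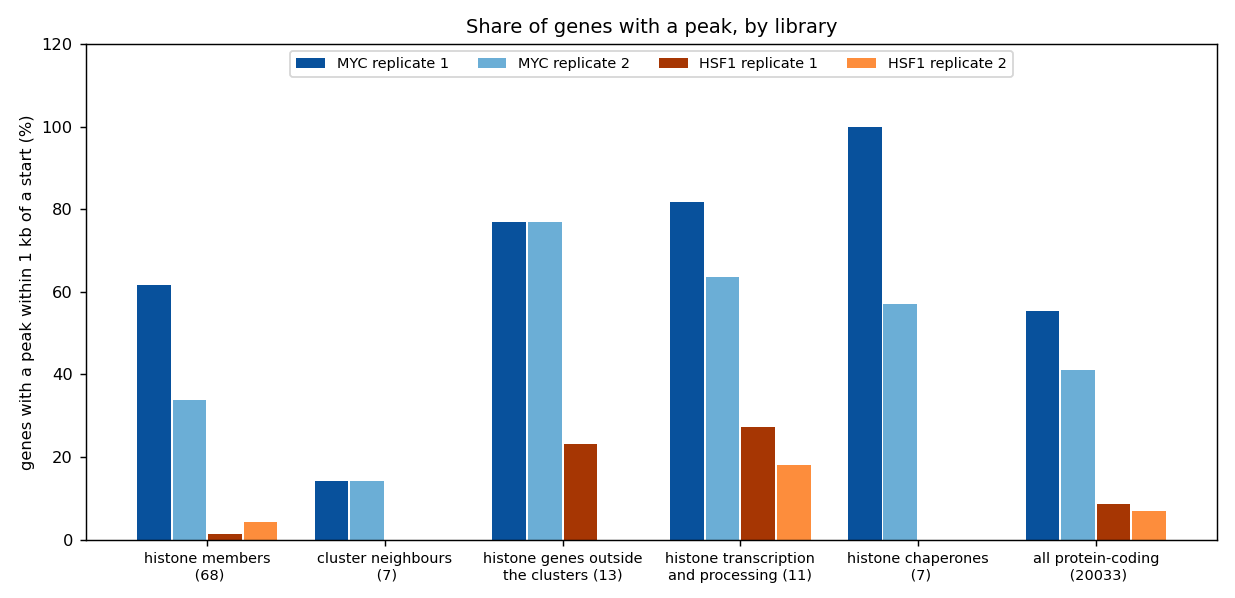
Share of genes with a peak within 1 kb of a start (y axis, percent) in each of the 4 libraries (bars) for the 68 histone members, 7 cluster neighbours, 3 groups of related genes and all 20033 protein-coding genes. The members are at 61.8% and 33.8% in the MYC lists and at 1.47% and 4.41% in the HSF1 lists.

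The share of genes with a MYC peak varied between the families. Over all protein-coding genes it was 55.3% in replicate 1 and 41.2% in replicate 2. H2A genes had one at 14 of 17 (82.4%) in replicate 1 and at 8 (47.1%) in replicate 2. H2B genes had one at 13 of 18 (72.2%) and at 8 (44.4%), and H3 genes at 10 of 13 (76.9%) and at 5 (38.5%). The H4 genes were lower, with 4 of 14 (28.6%) and 2 (14.3%), and so were the H1 genes, with 1 of 6 (16.7%) and 0. Of the H1 genes, H1-3 was the exception, with a fold enrichment of 5.73 in replicate 1. The order of H2A, H2B and H3 above H4 and H1 held in both MYC lists. Family and cluster overlap, however. The 34-gene cluster, which had the lowest MYC share, holds 5 of the 6 H1 and 8 of the 14 H4 genes. It also holds 5 of the 17 H2A, 9 of the 18 H2B and 7 of the 13 H3 genes. For the H1 genes family and cluster cannot be told apart. Neighbouring genes can share a peak, so the members of a family are not independent, and the families were not tested against each other.

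**Figure D2:**
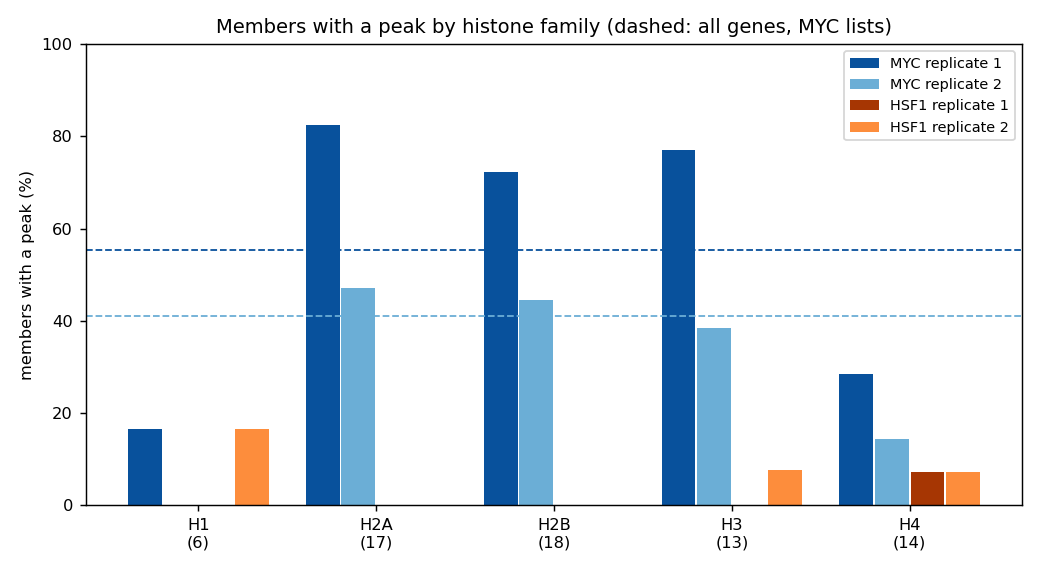
Share of members with a peak (y axis, percent) by histone family (x axis, number of genes in brackets) in the 4 libraries (bars); dashed lines give the share of all protein-coding genes in MYC replicate 1 (dark) and replicate 2 (light). H2A, H2B and H3 reach 72.2% to 82.4% in MYC replicate 1, and H1 and H4 stay at 16.7% and 28.6%.

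The share also varied between the clusters. In the 34-gene cluster 14 members (41.2%) had a MYC peak in replicate 1 and 6 (17.6%) in replicate 2, and 20 members (58.8%) had no peak in any list. In the 16-gene cluster the MYC counts were 12 (75.0%) and 7 (43.8%), and in the 5-gene cluster 4 (80.0%) in each replicate. The 11-gene cluster on chromosome 1 had 10 (90.9%) and 4 (36.4%), and both genes of the H2AC25/H2BC26 pair were called in both replicates. The 34-gene cluster had the lowest share of the 5 clusters in both MYC lists. The clusters differ in their families, as given above, and were not tested against each other.

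Within the 34-gene cluster the members without a peak were grouped. Between H2AC4 and H2BC8 lie 15 members, a stretch picked out after the values were seen, and 14 of them had no peak in any list. The other is H2BC6, whose peak in MYC replicate 1 lay at an alternative start, with its summit 11654 bp upstream of the canonical one. Over all clusters, 24 members (35.3%) had no peak in any list, against 43.1% of all genes. Of the H1 genes these were H1-1, H1-2, H1-4 and H1-6. Of the H4 genes they were H4C3, H4C4, H4C5, H4C6, H4C7, H4C9, H4C11, H4C12 and H4C15. The H2A and H2B genes without a peak were H2AC1, H2AC6, H2AC7, H2BC1, H2BC3, H2BC4, H2BC5 and H2BC7, and the H3 genes were H3C2, H3C3 and H3C4.

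**Figure D3:**
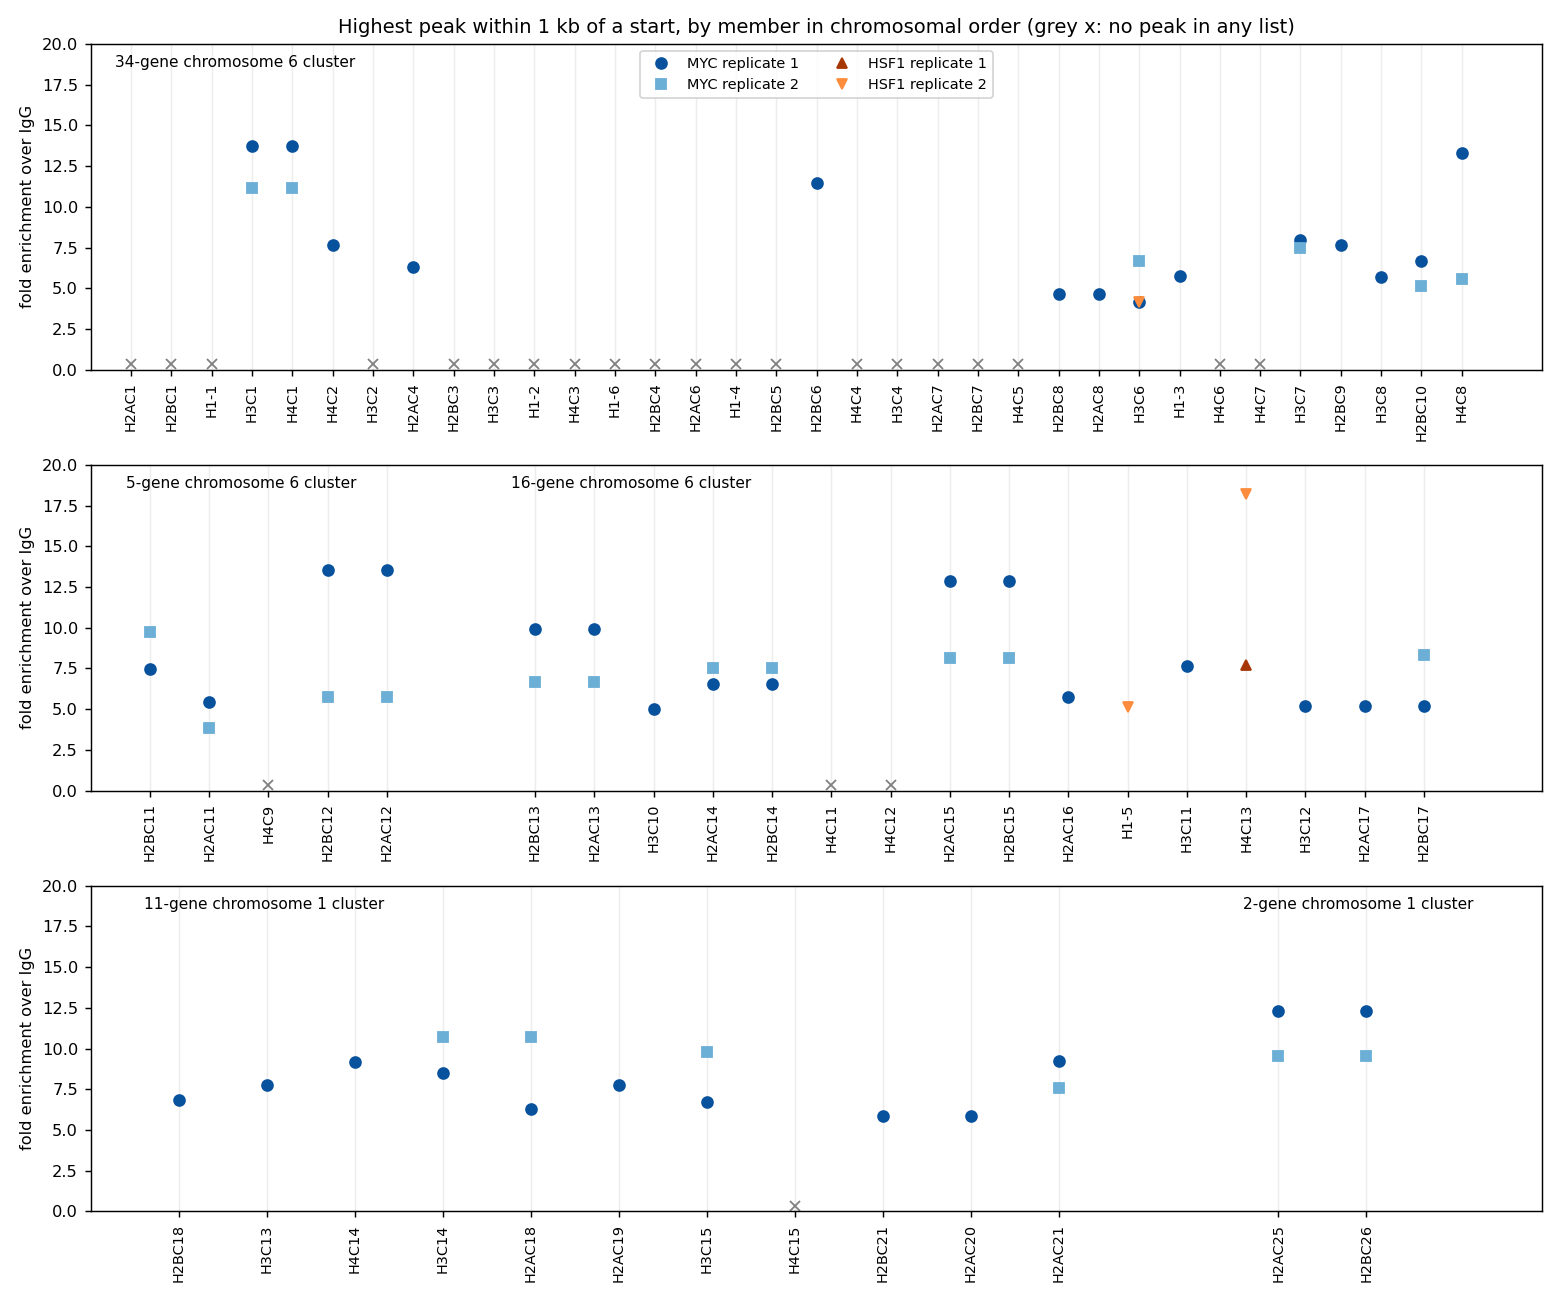
Fold enrichment of the highest peak within 1 kb of a start (y axis) for each of the 68 members in chromosomal order (x axis), in MYC replicates 1 and 2 (blue) and HSF1 replicates 1 and 2 (orange); a grey cross marks the 24 members with no peak in any list. MYC values range from 3.84 to 13.7, and H4C13 alone has both HSF1 marks, at 7.69 and 18.2.

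In the 34-gene cluster the highest MYC values were at H4C1, which encodes histone H4, with a fold enrichment of 13.7 in replicate 1 and 11.2 in replicate 2 (12.4 ± 1.82, SD, n = 2). Its neighbour H3C1 was assigned the same peaks, but their summits lay 1275 and 865 bp downstream of the H3C1 start, next to H4C1. H4C8 followed, with 13.3 and 5.59 (9.44 ± 5.45, SD, n = 2). Neither gene had an HSF1 peak. The spread between replicates at H4C8 exceeded the gap between its mean and that of H4C1, so their order is not set by these data.

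In the 16-gene cluster H2AC15 and H2BC15 shared the highest MYC peak, at 12.9 in replicate 1 and 8.14 in replicate 2 (10.5 ± 3.36, SD, n = 2). Its summit lay 1053 bp past the H2AC15 start in replicate 1 and 196 bp past it in replicate 2, so this spread joins different places. H2BC13 and H2AC13 came next with 9.90 and 6.69 (8.29 ± 2.27, SD, n = 2). In the 5-gene cluster H2BC12 and H2AC12 had 13.5 and 5.74 (9.63 ± 5.51, SD, n = 2), again at different places. The summits lay 890 and 165 bp past the H2BC12 start. All 3 pairs had higher values in replicate 1 than in replicate 2, as did H4C1 and H4C8. The same direction held over all 8024 genes with a MYC peak in both lists, with medians of 16.7 and 11.9, so it is not particular to these genes. H2BC11, the next in the 5-gene cluster, ran the other way at its highest peaks, with 7.45 and 9.74 (8.60 ± 1.62, SD, n = 2). The summits of these peaks lay 1254 and 1004 bp from its canonical start, past the end of the 480 bp transcript. Its peaks nearer the start had 5.42 in replicate 1 and 3.84 in replicate 2, the same direction as the other genes. Their summits lay upstream of the start in replicate 1 and inside the transcript in replicate 2.

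On chromosome 1, H2AC25 and H2BC26 had 12.3 in replicate 1 and 9.56 in replicate 2 (10.9 ± 1.94, SD, n = 2). In the 11-gene cluster H3C14 had 8.49 and 10.7 (9.60 ± 1.56, SD, n = 2). H2AC18 shared the replicate 2 peak of H3C14 and had 6.28 and 10.7, and H2AC21 had 9.25 and 7.55. The means of these 3 members differed by less than the spread between replicates of H3C14, which was 1.56. The larger spread of H2AC18, 3.13, joins different places. Its summits lay 100 bp upstream of its start in replicate 1 and 1093 bp downstream in replicate 2.

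Among the 19 members called in MYC replicate 1 only, the highest were H2BC6 at 11.4, by its alternative start, H4C14 at 9.18, H3C13 at 7.76, H2AC19 at 7.75 and H2BC9 at 7.65. Replicate 1 had fewer fragments than replicate 2, 8265647 against 10084407, and nevertheless 25646 peaks against 13290. The loss of members in replicate 2 thus went with a shorter list in a deeper library.

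MYC peaks at members stood on a high IgG background. The 35 distinct MYC peaks at member starts in replicate 1 had a median pileup of 27 fragments, against 28 at the starts of other genes, and the 20 in replicate 2 had 32, against 26. Their median fold enrichment was 7.64 in replicate 1, against 13.3, and 7.53 in replicate 2, against 11.0. The local background that the fold enrichment implies was a median of 2.66 fragments in replicate 1, against 0.960, and 3.73 in replicate 2, against 1.35. It was above the median of the other start-site peaks for 34 of 35 and 19 of 20 member peaks, and the fold enrichment was below their median for 33 of 35 and 19 of 20. The pileup was above the other peaks' median for 15 of 35 and 15 of 20 member peaks, so in replicate 2 it ran higher at members while the fold enrichment was lower in both lists. The same IgG library underlies all 4 lists, so the background is not an independent measurement in each of them.

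At a background of 2.66 a MYC peak in replicate 1 needed a pileup of at least 18 to pass 1e-10, while at 0.960 it needed 12. In replicate 2 the values were 21 at a background of 3.73 and 14 at 1.35. Among the other start-site peaks 17.6% in replicate 1 and 28.3% in replicate 2 had a lower pileup than the members' background would have required. The background is known only where a peak was called, so its level at the 24 members without a peak is not given by the files, and its part in the missing calls was not tested.

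**Figure D4:**
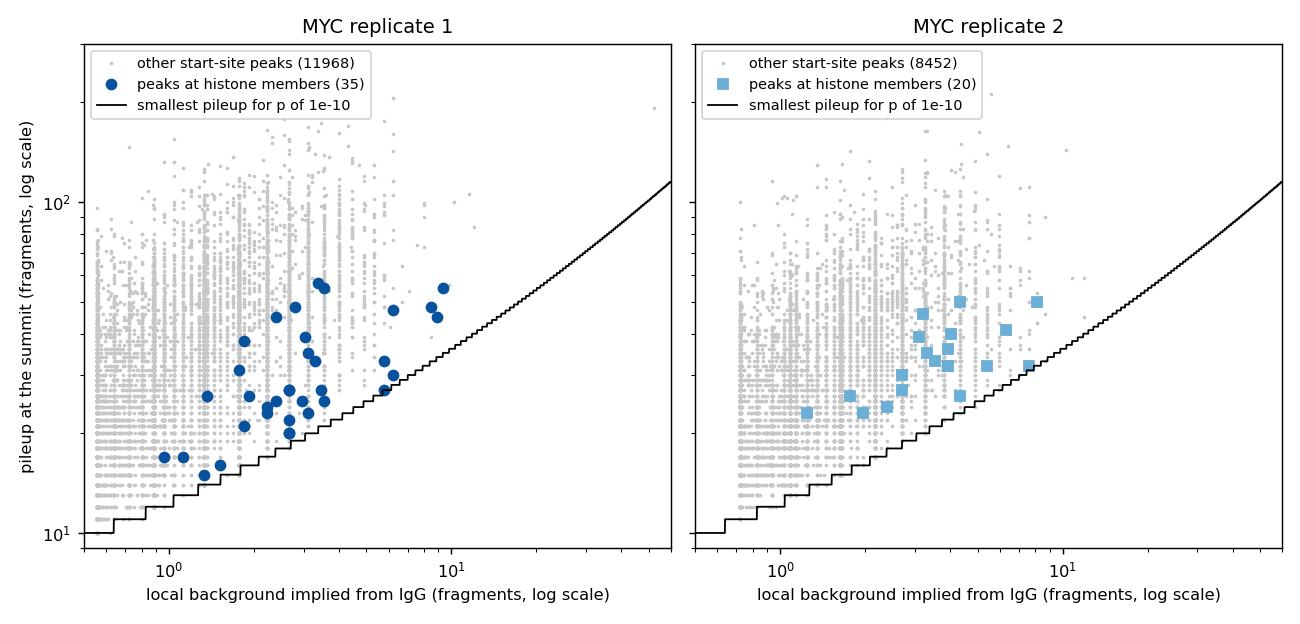
Pileup at the summit against the local background implied from the IgG library (both in fragments, log axes) for MYC peaks at member starts (blue) and at the starts of other genes (grey) in replicates 1 and 2; the black line is the smallest pileup that passes a p of 1e-10. Member peaks lie to the right, at median backgrounds of 2.66 and 3.73 against 0.960 and 1.35, and their pileups have medians of 27 and 32 against 28 and 26.

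For genes with a MYC peak in both replicates, the median of the mean fold enrichment was 8.49 over the 23 members and 14.4 over all 8024 such genes. Of the 35 member peaks in replicate 1, 16 (45.7%) overlapped a peak of replicate 2, against 64.3% of the other start-site peaks. Of the 20 in replicate 2, 17 (85.0%) overlapped one of replicate 1, against 92.3%. The share was lower for member peaks in both directions, and the difference was not tested.

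The summits lay upstream of the starts, over the short transcripts or past their ends. In replicate 1 the summits of 15 of 35 member peaks were upstream of the nearest canonical start, 16 were inside the transcript and 4 were past its end, with a median distance of 143 bp from the start. In replicate 2 it was 6, 11 and 3 of 20, with a median distance of 304.5 bp. Taken per gene and from the nearest annotated start, the median distance was 146 bp over members against 132 bp over all genes in replicate 1, and 333 bp against 154 bp in replicate 2, where 73.9% of members and 89.7% of all genes had the summit within 500 bp. Past the end of the transcript were, for example, the replicate 1 peaks of H2BC12, 890 bp from the start, and of H2AC15, at 1053 bp. Within 100 bp of the summit a CACGTG was found in 1 of 35 member peaks (2.86%), against 7.53% of other start-site peaks, and in 0 of 20, against 6.52%.

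Much of the H2A and H2B family is arranged in divergent pairs, and 12 pairs had starts 194 to 251 bp apart. MYC peaks were called in both replicates at 7 pairs and in replicate 1 only at H2BC21/H2AC20 and H2BC8/H2AC8. The 3 pairs without any peak were H2AC1/H2BC1, H2BC4/H2AC6 and H2AC7/H2BC7, all in the 34-gene cluster. Among all 754 head-to-head pairs of protein-coding genes, 88.6% had a MYC peak in replicate 1 and 71.8% in replicate 2, against 9 (75.0%) and 7 (58.3%) of the 12 histone pairs. The stretches printed for H2AC25/H2BC26 and H2AC7/H2BC7 each hold 3 CCAAT boxes, and of the 3 stretches shown only that of H2AC7/H2BC7, which had no peak, holds the octamer.

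HSF1 peaks reached 3 members in all. At H4C13 the fold enrichment was 7.69 in replicate 1 and 18.2 in replicate 2 (12.95 ± 7.44, SD, n = 2), with pileups of 28 and 65. The peaks ran from chr6:27873624-27873928 and chr6:27873441-27874181. These values placed H4C13 at rank 258 of 1718 genes with a peak in replicate 1 and at rank 97 of 1372 in replicate 2, and the median over the 699 genes with an HSF1 peak in both replicates was 6.25. The summits lay 240 and 190 bp upstream of the start, in the window printed above, and the TTCCTGAA there began 122 bases before the start, inside both peaks and 122 and 72 bp from the summits. No heat shock element of 3 units and no E-box lay within 100 bp of either summit. H4C13 had no MYC peak in either list. The nearest MYC peak, at H3C11 with a fold enrichment of 7.64 in replicate 1, was 1477 bp away from the replicate 1 HSF1 peak and 1294 bp from that of replicate 2.

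The other HSF1 calls were in replicate 2 only. H1-5, a linker histone gene in the same cluster, had 2 peaks with fold enrichments of 4.69 and 5.14, and the second, with its summit 76 bp downstream of the start, passed 1e-10 (−log10 p of 11.1). H3C6 had a peak of 4.15 that overlapped MYC peaks of 4.13 in replicate 1 and 6.69 in replicate 2, at an alternative start 936 bp upstream of the canonical one. H3C6 was the only member where peaks of the factors overlapped, and its HSF1 peak was missing from replicate 1.

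Near-identical copies limit the reading of the 11-gene cluster. Of the 50-base words within 1 kb of the canonical start, under 10% recurred elsewhere on chromosomes 1 and 6 for 52 members and over 50% for 8 members, all 8 in this cluster. For H3C14, H3C15, H4C14 and H4C15 it was 100%. H4C14 was called in MYC replicate 1 at 9.18 and its copy H4C15 in no list, a difference that reads from identical sequence cannot assign. Values in this cluster may be split between copies, and how reads with several matches were kept is not given in the sources used here. Without the members at 10% or more, 29 of 52 had a MYC peak in replicate 1, against 55.3% of all genes. In replicate 2 it was 16 of 52, against 41.2%, and in both replicates 16 of 52, against 40.1%. Of the members with 10% to 50%, 6 of 8 were called in replicate 1, and of those over 50%, 7 of 8. H4C13 stayed the 1 member with HSF1 peaks in both HSF1 lists.

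Related genes outside the rule are set beside the members here, with no test between them. Of 31 genes for histone transcription, mRNA processing, chaperones and histones encoded elsewhere, 26 (83.9%) had a MYC peak in replicate 1, 21 (67.7%) in replicate 2 and 20 (64.5%) in both, against 55.3%, 41.2% and 40.1% of all genes. The 13 histone genes outside the clusters, mostly replication-independent variants, had MYC peaks at 10 (76.9%) in each MYC list, the same 10 genes. H3-3A, which encodes the variant H3.3, had 21.3 and 24.0, and H1-10 had 21.8 and 20.4. H2AZ1, for the variant H2A.Z, had 26.9 and 8.84, and H4C16 had 16.03 and 11.6. Over the 10 genes the values ran from 8.34 to 26.9 in replicate 1 and from 6.77 to 24.0 in replicate 2, and 8 and 4 of them exceeded the highest member values of 13.7 and 11.2. HSF1 peaks were at 3 of the 13 genes (23.1%) in HSF1 replicate 1, H2AZ1, H2AZ2 and CENPA, against 8.58% of all genes, and at 0 in replicate 2, against 6.85%.

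Of the 11 genes for histone transcription and 3′ end processing, 9 (81.8%) had a MYC peak in replicate 1, 7 (63.6%) in replicate 2 and 6 (54.5%) in both. Over all genes the shares were 55.3%, 41.2% and 40.1%. NPAT, the coactivator that gathers at histone gene clusters, had 21.3 and 15.4, and CASP8AP2, a scaffold of the same nuclear body, had 16.3 and 13.9. SLBP, which binds the stem-loop of histone mRNA, had 13.7 and 19.9. Among the U7 snRNP proteins, LSM10 was called in replicate 1 only, at 9.18, and LSM11 in no list. HSF1 peaks were at 3 (27.3%) and 2 (18.2%) of these genes, against 8.58% and 6.85% of all genes, and only ZNF473, another U7 snRNP component, had one in both HSF1 lists (5.03 and 4.92), beside MYC values of 18.9 and 8.76.

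All 7 histone chaperone genes had a MYC peak in replicate 1, and 4 (57.1%) had one in replicate 2. Over all genes the shares were 55.3% and 41.2%. NASP, a chaperone of H1 and of H3 and H4, had 13.3 and 13.1, and HIRA, which deposits H3.3, had 14.3 and 14.9. ASF1B had 13.7 and 7.87, and DAXX 13.2 and 8.09. The highest replicate 2 peak of DAXX was at an alternative start, with its summit 2277 bp downstream of the canonical one. ASF1A at 19.1 and the subunits of CAF-1, CHAF1A at 18.7 and CHAF1B at 11.5, were called in replicate 1 only. None of the 7 had an HSF1 peak, against 8.58% and 6.85% of all genes in the HSF1 lists.

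Other protein-coding genes lie between the members only in the 34-gene cluster, 7 in all. HFE, a regulator of iron uptake, had MYC peaks of 9.82 and 6.82 and lay in the stretch where 14 of 15 members had none. SLC17A1, SLC17A2, SLC17A3, SLC17A4, TRIM38 and a gene known only as ENSG00000282988 had no peak in any list. HFE was thus the only gene between the members with a peak.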

How the data were processed

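Peak lists of the 4 antibody libraries were analysed, 1 list per library, and the IgG library entered only as their background. The authors aligned the reads to GRCh38 with Bowtie2 and called peaks with MACS2 (version 2.2.9.1 per the file headers) at p-value thresholds of 1e-04 (HSF1) and 1e-10 (MYC), with no pooling of replicates. Each deposited peak carries its pileup (a signal of stacked fragments), a fold enrichment, which is the ratio to the local IgG background, and a −log10 p-value and q-value. The submitters' processing notes also name bcl2fastq 2.20.0, SAMtools and bedtools, and a rule on mapping quality is not given in the sources used here. The lists lack read counts, so no count model was possible.

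Lists were read with Python 3.11.15, pandas 2.3.3, numpy 2.4.6 and scipy 1.17.1, and plotted with matplotlib 3.10.9. Peaks were assigned to genes within 1000 bp of any GENCODE release 44 start. The local background was taken from pileup and fold enrichment with 1 added to each, as MACS2 does. The Poisson −log10 p recomputed from it lay within 2% of the deposited value for 100% of the peaks checked in every list. Assignment was tested on simulated data and recovered all 200 planted genes in 20 of 20 runs.

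Named with values are members with HSF1 peaks in both replicates, the 3 highest members of each cluster by mean MYC fold enrichment, members with no peak, the 5 highest with a MYC peak in 1 replicate, the pathway genes (part of them, with the rest as counts) and the other genes of a cluster with MYC peaks. H1-5, H3C6 and the sequences of H4C2, H4C9, H4C16, the H2AC7/H2BC7 pair and the H1 genes were picked beyond that rule, with their values in view. The members and gene lists were chosen with earlier results of these data known. The replicates share only a number in the labels. The alternatives numbered 59.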

Additional observations from a re-analysis of the deposited data

How the results depend on the processing

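Of 59 alternatives, 45 left counts within 1.5 times, medians within the replicate spread or the difference between factors with the same sign. Another 14 moved the value. Only the difference between factors was judged by its sign, which 0 alternatives reversed. Some alternatives could not change the value, such as the common threshold for MYC counts, which equals that of the MYC lists, and the replicate block. Whether the members lay above or below the share of all genes was not among the results varied. The 23 members with a MYC peak in both replicates became 12 at a threshold of 1e-20, 42 with the union of the replicates and 14 when distinct merged peaks were counted in place of genes. With either MYC replicate left out the count was 23 to 42, the higher value being that of replicate 1 alone, without replicate 2. The 1 member with HSF1 peaks in both replicates became 2 within 2000 bp, where the H4C13 peak also reached H3C11, 0 at 1e-20, 3 with the union and 1 to 3 with an HSF1 replicate left out, the higher value without replicate 1. Members with both factors in both replicates numbered 0, but 1 with the union, H3C6, and 0 to 1 with a library left out, the higher value without HSF1 replicate 1. The median HSF1 fold enrichment of 12.95 ran from 5.14 to 7.69 with a replicate left out and rests on 1 gene, or on 3 without replicate 1. Pathway genes with HSF1 peaks in both replicates numbered 1, but 7 with the union and 2 to 6 with a replicate left out. The median MYC fold enrichment of 8.49 was 7.55 in either MYC replicate alone, but over different sets, the 42 members called in replicate 1 and the 23 in replicate 2. Over the same 23 members it was 9.25 in replicate 1 and 7.55 in replicate 2.

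The difference of 30.5 members between the factors ran from 18 to 35.5 over the other settings and from 21 to 40 with a library left out. Replicate numbers in the labels pair no samples, and with the number as a replicate block the mean difference was again 30.5, with an exact sign-flip test over 2 pairs giving p = 0.5, the smallest possible.

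The limits are those of 2 libraries per factor, 1 IgG library for all lists, and 1 cell line. Peaks shared by neighbouring genes make the members dependent, and 8 members of the 11-gene cluster lie in near-identical copies. Missing calls were not called at this depth, with thresholds that differ between the factors.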
